A study of Mus musculus with 12 samples.

Results

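The tricarboxylic acid cycle and the shuttles that move carbon into and out of mitochondria were examined in osteoclasts of the mouse, large cells with many nuclei that dissolve and resorb bone. The genes were taken by function, in a list chosen with earlier results of these data known. The 31 genes were found by symbol among the 55414 gene IDs counted. The filter on low counts kept 13403 genes, 30 of these 31 among them. RNA was measured in 12 cultures, 3 biological replicates in each of 4 groups. The groups were Notch2 mutant with a Hes1 deletion, wild type with a Hes1 deletion, Notch2 mutant with Hes1 loxP, and wild type with Hes1 loxP. Notch2 encodes a receptor of the Notch pathway, and Hes1, a classic target of that pathway, encodes a repressor of transcription. In the Hes1 loxP groups the Hes1 gene is flanked by recombination sites, and the sources used here do not say how it was deleted in the other groups, nor which mutation Notch2 carries. In all 4 groups the bone marrow came from male mice aged 7 to 8 weeks, macrophages were grown with the growth factor M-CSF at 30 ng/ml, and from day 3 the cytokine RANKL was added to it for 4 days. Control animals were littermates per the design text, but no label ties a culture to an animal or a litter.

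The cycle oxidises acetyl-CoA inside mitochondria and passes the electrons to the respiratory chain. Pyruvate carriers, carboxylation and transamination feed it, while citrate and malate leave it through carriers of the inner membrane and supply acetyl-CoA and reducing power in the cytosol. Osteoclasts are rich in mitochondria, and their formation and the acid secretion with which they dissolve bone use much ATP. The questions were whether the Notch2 mutation or the Hes1 deletion changed the RNA of these genes, and whether the answer to one depended on the other.

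The 300 bases around the start of each gene (250 before it and 50 after it) were available for 28 of the 31 genes in the promoter table of RefSeq on build GRCm38.p6, and were not available for Idh3a, Me2 and Nnt. They were searched on both strands for 4 motifs of factors tied to mitochondrial genes or to Notch: TCAAGGTCA (estrogen-related receptors), GCGCATGCG (Nrf1), CACGTG (an E-box, read by Myc and Tfeb among others) and TGGGAA (the core of the site of Rbpj, the DNA-binding partner of Notch). A gene with several annotated starts has several windows and counted if any held the motif, which made 37 windows for the 28 genes, 6 of them of Ogdh and 2 each of Idh1, Me1, Mpc1 and Pcx. TCAAGGTCA was in 0 of the 28 genes, against 0.466% of all 27025 genes in the table. GCGCATGCG was in 1, that of Ogdh, against 1.95% of all genes and 4.14% of the tested genes with a window. CACGTG was in 4 (Ogdh, Pcx, Slc25a1 and Slc25a13), which is 14.3%, against 11.7% of the tested genes. TGGGAA was in 6 (Aco1, Cs, Fh1, Ogdh, Suclg1 and Suclg2), which is 21.4%, against 26.6% of the tested genes. The 250 bases before the start that overlap no annotated exon are shown for 3 genes whose values are described below: Cs, the enzyme that opens the cycle, Fh1, which hydrates fumarate, and Slc25a13, the aspartate and glutamate carrier citrin. Capitals mark the motif match, TGGGAA in Cs and Fh1 (both read on the opposite strand) and CACGTG in Slc25a13. The windows are chr10:128337477-128337726 on the + strand, chr1:175625636-175625885 on the - strand and chr6:6217174-6217423 on the - strand, and each is written along its own gene.
Cs: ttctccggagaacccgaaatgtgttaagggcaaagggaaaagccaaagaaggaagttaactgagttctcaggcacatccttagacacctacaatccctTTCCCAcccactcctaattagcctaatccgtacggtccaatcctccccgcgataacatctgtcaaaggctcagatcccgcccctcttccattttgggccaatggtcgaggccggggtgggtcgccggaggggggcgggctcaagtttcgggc
Fh1: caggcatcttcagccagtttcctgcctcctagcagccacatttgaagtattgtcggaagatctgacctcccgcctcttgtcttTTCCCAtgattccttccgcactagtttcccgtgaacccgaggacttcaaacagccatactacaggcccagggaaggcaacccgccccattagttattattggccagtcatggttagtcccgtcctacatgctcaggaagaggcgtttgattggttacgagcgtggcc
Slc25a13: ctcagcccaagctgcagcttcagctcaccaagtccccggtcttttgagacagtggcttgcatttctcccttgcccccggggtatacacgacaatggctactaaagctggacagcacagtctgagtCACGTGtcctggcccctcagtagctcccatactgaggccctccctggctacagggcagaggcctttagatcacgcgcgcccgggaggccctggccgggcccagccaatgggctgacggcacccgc
The matches begin 152 bases before the RefSeq start of Cs, 167 before that of Fh1 and 125 before that of Slc25a13, and a match is a run of letters, not a tested binding site.

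The counts assigned to genes were 13832368 to 19293772 per library, of which the 31 genes took 0.683 to 0.746%. All 16 osteoclast markers were present in every library, with Acp5 between 10380 and 15210 TPM (counts per exon length, scaled to a fixed total per library) and Mmp9 between 16200 and 23810 TPM. Hes1 itself gave 2 counts over the Notch2 mutant and 2 over the wild type Hes1 deletion libraries, against 7 and 23 over the Notch2 mutant and wild type Hes1 loxP libraries, too few to check a single library. Notch2 averaged 159 ± 9.99 CPM in Notch2 mutant and 166 ± 7.30 CPM in wild type Hes1 loxP libraries (SD, n = 3 each), and since the labels do not place the mutation, this checks no label. Wild type Hes1 deletion replicate 3 stood apart from its 2 fellow libraries, with a chi-square per gene of 8.04 and 8.41 against them. The other pairs of replicates had 2.40 to 7.78, the highest between replicates 2 and 3 of Notch2 mutant Hes1 loxP. Nothing in the labels says that replicates came from separate animals, so p-values measure the spread between these cultures.

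Levels of the genes were compared with each other per length, as TPM, and spanned Mdh2 to the nearly undetected Nnt. The length was that of all annotated exons merged, not that of the transcripts expressed, so this order depends on it. Mean CPM, not divided by length, gave another order for some genes. In wild type Hes1 loxP libraries Cs (813) lay above Mdh1 (512.5). Dlst (402) lay above Dld (226) there, and Mpc2 (80.2) above Mpc1 (32.0). The malate dehydrogenases led, with the mitochondrial Mdh2 at 898 and the cytosolic Mdh1 at 696 TPM over the 12 libraries. Citrate synthase (Cs) followed at 484 TPM and Ogdh, the first subunit of the 2-oxoglutarate dehydrogenase complex, at 425 TPM. The ranges of Mdh2, Mdh1 and Cs over the 12 libraries did not meet, while that of Cs met that of Ogdh. The other subunits of that complex, Dld and Dlst, lay at 208 and 144 TPM. Among the carriers the oxoglutarate carrier Slc25a11 was highest at 307 TPM, and the citrate carrier Slc25a1, the dicarboxylate carrier Slc25a10 and the aspartate carriers Slc25a13 and Slc25a12 had 81.0, 69.0, 69.0 and 36.9 TPM. Among the genes of carbon entry and exit, glutamate dehydrogenase (Glud1) led at 319 TPM, followed by ATP citrate lyase (Acly), which makes cytosolic acetyl-CoA, at 199 TPM. The subunits of the pyruvate carrier were lower, with Mpc1 at 51.7 and Mpc2 at 37.8 TPM, and the cytosolic malic enzyme Me1 and pyruvate carboxylase (Pcx) lowest among the tested genes, at 14.1 and 10.6 TPM. Of the 30 pairs of neighbours in this order, the ranges of 18 overlapped and those of 12 did not.

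**Figure D1:**
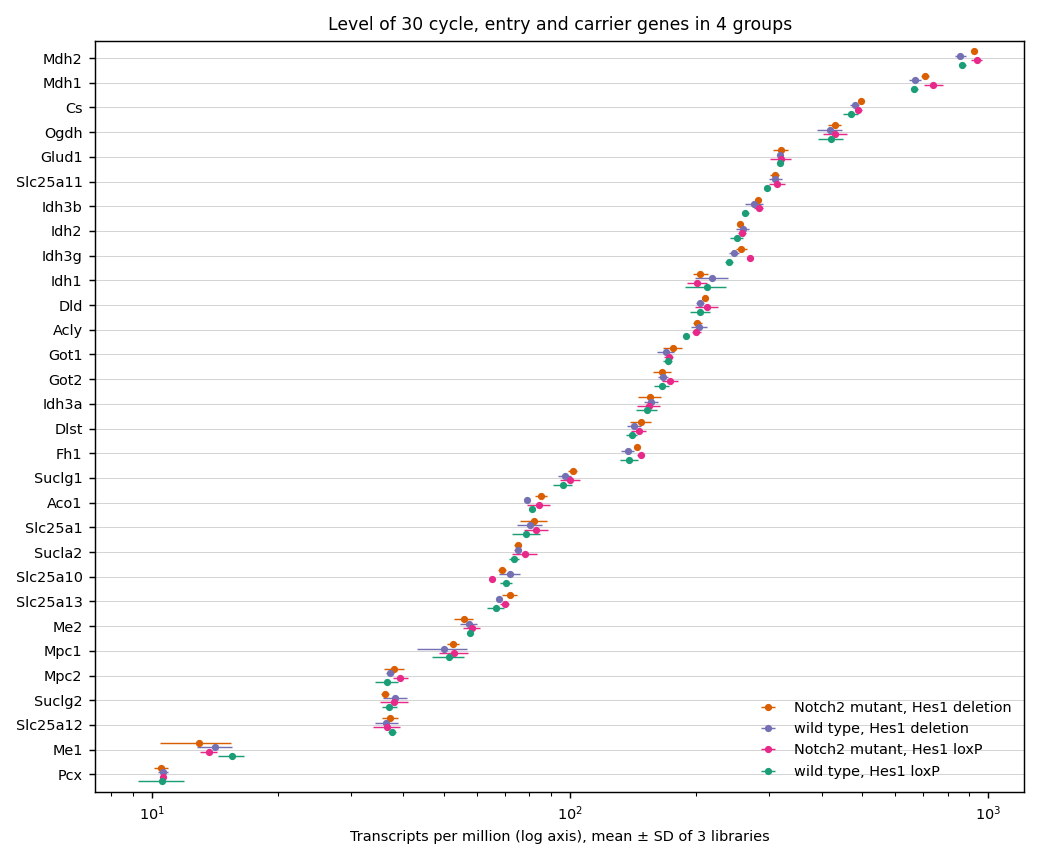
Level of each of the 30 tested genes in TPM (log axis), as mean ± SD of the 3 libraries in each of the 4 groups. The order of the genes spans Mdh2 at 898 TPM to Pcx at 10.6 TPM, and the 4 groups lie close together on every row.

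Pairs of enzymes that do the same step in different places, or with different partners, were compared within each library as TPM. Mitochondrial Idh2 exceeded cytosolic Idh1 in all 12 libraries, with a median ratio of Idh1 to Idh2 of 0.820 (range 0.716 to 0.912). The ratio of Mdh1 to Mdh2 was 0.773 (0.747 to 0.828). Cytosolic and mitochondrial aspartate aminotransferase were close per length, with a ratio of Got1 to Got2 of 1.03 (0.971 to 1.09). Got1 was higher in 8 of 12 libraries. This rests on merged exon lengths of 2539 bp for Got1 and 4824 bp for Got2. In CPM Got2 was higher, with means of 239 against 130 in wild type Hes1 loxP libraries. Mitochondrial Me2 exceeded Me1 in all 12 libraries, at a ratio of Me1 to Me2 of 0.237 (0.206 to 0.293). The ADP-forming subunit of succinyl-CoA ligase, Sucla2, exceeded the GDP-forming Suclg2 in every library (2.03, range 1.85 to 2.17). Among the aspartate carriers Slc25a13 exceeded Slc25a12 per length, at a ratio of Slc25a12 to Slc25a13 of 0.537 (0.493 to 0.576). Their merged exons span 3798 bp (Slc25a13) and 7342 bp (Slc25a12). In CPM Slc25a12 had the higher mean in wild type Hes1 loxP libraries, 82.6 against 75.7. The subunits of the NAD-dependent isocitrate dehydrogenase were not at equal TPM. Idh3b and Idh3g had a ratio of 1.09 (1.04 to 1.16), and Idh3a lay at 0.557 of Idh3b. The merged exons of Idh3a span 5072 bp and those of Idh3b 3422 bp, so that value depends on them too. Suclg2, Mpc1, Glud1, Got2 and Me1 have near-identical pseudogene copies (at least 95% identity over 200 bases or more), so their counts are less certain. No source used here gives the strand setting of the counting. Reads from antisense genes may not be separated, and such genes cover 23.1% of the exon bases of Mpc1, 8.997% of Got2, 8.92% of Slc25a11, 6.599% of Slc25a10 and 2.03% of Mdh1.

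The transhydrogenase Nnt, which makes mitochondrial NADPH from NADH, was scarce in all groups and was not tested. Its counts were 6, 7 and 4 in Notch2 mutant and 4, 4 and 3 in wild type Hes1 deletion libraries. In the Hes1 loxP libraries they were 5, 2 and 4 in the Notch2 mutant and 4, 1 and 5 in wild type. In CPM the Notch2 mutant Hes1 deletion libraries (0.250 to 0.417) lay above the wild type ones (0.183 to 0.231), from counts of 3 to 7, while the Hes1 loxP groups overlapped. A second gene record of the same symbol, with 0 counts in every library, covers 47.4% of its exon bases, and reads there could not be given to either.

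With Hes1 intact, most of these genes had slightly more RNA in Notch2 mutant than in wild type osteoclasts, and none of them passed the test. The malate dehydrogenases Mdh1 and Mdh2 and the NAD-dependent isocitrate dehydrogenase subunit Idh3g had the largest values of the set, 10.6 to 14.3% above wild type. Log2 fold changes ran from -0.16 to 0.19 with a median of 0.08, against a median of 0.003 over all 13403 genes, and 26 of 30 lay above 0, against 50.9% of all genes. The edgeR quasi-likelihood test called 0 of 30 at an adjusted p under 0.05, where it called 0.776% of all genes (104, of which 19 were higher and 85 lower). At an unadjusted p under 0.05 it had 11 of 30, all higher, against 7.19% of all genes higher and 14.2% in either direction. Limma-voom called 0 of them. DESeq2, edgeR with no filter, and edgeR without wild type Hes1 deletion replicate 3 each called 2, Idh3g and Mdh1, with adjusted p of 0.0138 and 0.0243, 0.0250 and 0.0251, and 0.0307 and 0.0450. Those settings also called more genes in all: 244, 657 (of 25080 tested) and 289 in the same order, against 104 in the main fit. The libraries of the groups did not overlap for 11 genes higher in the Notch2 mutant (9.83% of all genes) and 2 lower (8.51%). Leaving out 1 library moved the 104 to between 26 (wild type Hes1 loxP replicate 1) and 289 (wild type Hes1 deletion replicate 3). In bulk RNA, fewer cells of a type and less RNA per cell cannot be told apart.

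Idh3g, on chromosome X (73778963 to 73786897, GRCm38), encodes the regulatory gamma subunit of the NAD-dependent isocitrate dehydrogenase. It had 224, 216 and 226 CPM in Notch2 mutant and 192, 199 and 192 CPM in wild type Hes1 loxP libraries. Every Notch2 mutant library lay above every wild type one. The log2 fold change was 0.19 ± 0.05 (SE), or 14.3% with a 95% interval of 6.90 to 22.3%, and the adjusted p in edgeR was 0.0566. Its partner subunits had log2 fold changes of 0.14 (Idh3b) and 0.04 (Idh3a), with edgeR adjusted p of 0.216 for Idh3b.

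Mdh1, on chromosome 11 (21556787 to 21572367), works on the cytosolic side of the malate-aspartate shuttle. It had 548, 595 and 599.8 CPM in Notch2 mutant libraries, against 499.5, 516 and 522 CPM in wild type libraries. Mdh2, on chromosome 5 (135778480 to 135790398), closes the cycle by oxidising malate. It had 999.9, 997.5 and 1075 CPM in Notch2 mutant and 906, 928 and 944.5 CPM in wild type libraries. Neither gene's groups overlapped. The log2 fold changes were 0.18 ± 0.05 for Mdh1 and 0.15 ± 0.05 for Mdh2 (SE), with edgeR adjusted p of 0.0884 and 0.151.

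**Figure D2:**
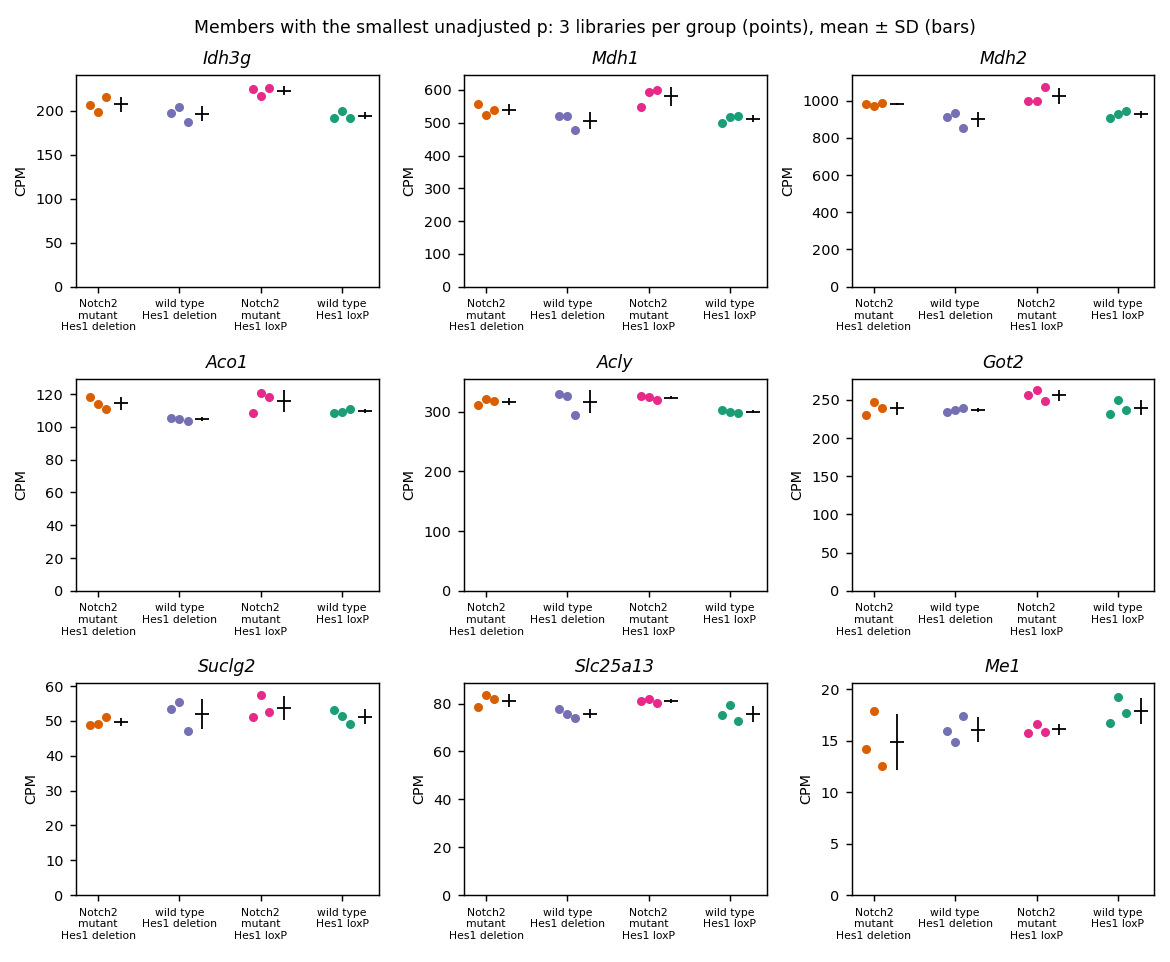
Level in CPM of the 9 genes that were among the 3 with the smallest unadjusted p in at least 1 of the 5 contrasts. Each library is 1 point, with the mean ± SD of 3 libraries beside it (axes start at 0). For Idh3g and Mdh2 all 3 Notch2 mutant Hes1 loxP libraries lie above all 3 wild type Hes1 loxP libraries, at 216 to 226 against 192 to 199 CPM for Idh3g.

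Of the 16 tested cycle enzymes, 15 lay above 0 in this comparison, with a median of 0.08. Besides the 3 above, Idh3b, Fh1, Sucla2 and Cs were at an unadjusted p under 0.05, with log2 fold changes of 0.14, 0.12, 0.12 and 0.09. Cs had 856, 872 and 869 CPM in Notch2 mutant and 779.6, 845 and 814 CPM in wild type libraries, which did not overlap. Idh1, the cytosolic NADP-dependent isocitrate dehydrogenase, was the cycle-list gene below 0, at -0.05 ± 0.08. Of the 9 genes of entry and exit, 8 lay above 0 with a median of 0.05. Mpc2, Acly and Got2 were highest at 0.14, 0.11 and 0.10, with edgeR adjusted p of 0.251, 0.276 and 0.343. Acly had 326, 326 and 320.4 CPM in Notch2 mutant and 303, 300.3 and 297.5 CPM in wild type libraries, a narrow spread within each group. Me1 was the one below 0, at -0.16 ± 0.11, with 15.7, 16.7 and 15.9 CPM in Notch2 mutant and 16.7, 19.3 and 17.7 CPM in wild type libraries. Of the 5 carriers 3 lay above 0, with Slc25a11 at 0.11, Slc25a1 at 0.11 and Slc25a13 at 0.10. Slc25a12 was at -0.01 and Slc25a10 at -0.08.

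These differences were small and measured tightly. The standard errors of the 30 log2 fold changes had a median of 0.05, and within-group SDs on the log2 scale had a median of 0.0542 over the 30 genes, against 0.0784 over the 7773 tested genes in the same range of CPM. The 95% interval of every one of the 30 genes excluded a 1.5-fold difference in either direction, in all 5 contrasts. In each of the 4 comparisons of groups, 29 of 30 also excluded 1.25-fold, and Me1, one of the scarcest, was the exception. The highest upper bound in the Hes1 loxP comparison was 1.22-fold. A p above the threshold does not show that the groups were alike, and the intervals give what remains possible.

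**Figure D3:**
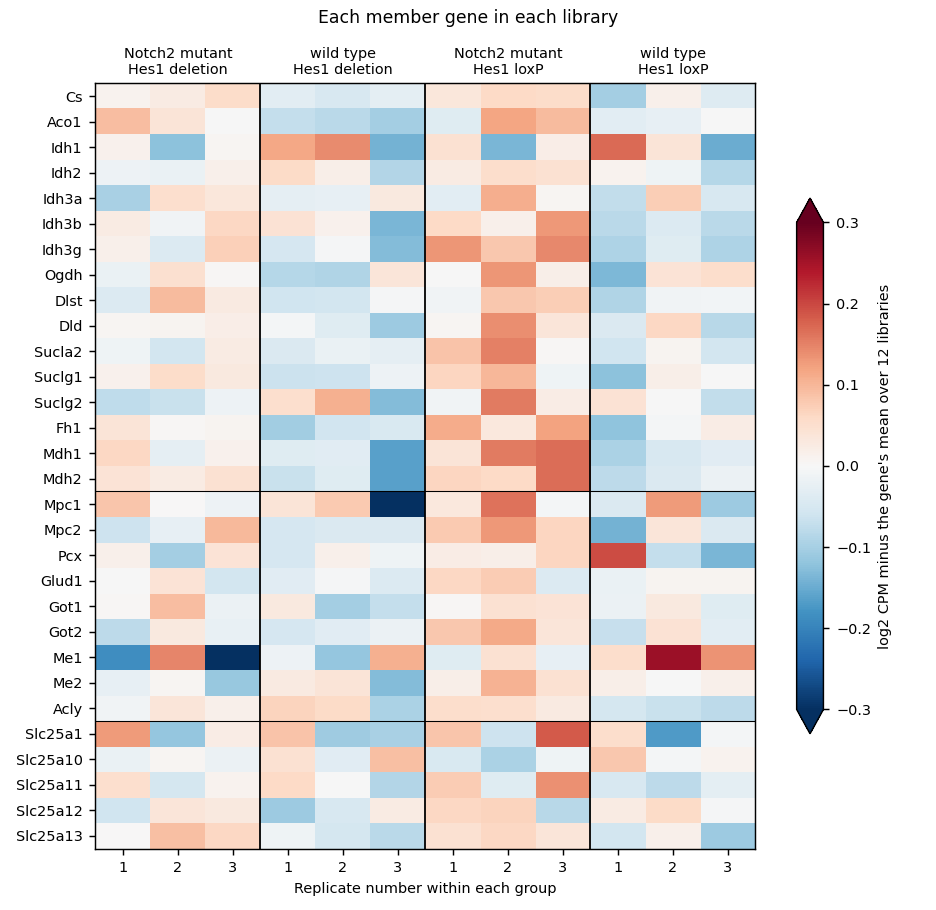
Log2 CPM of each of the 30 tested genes in each library minus the gene's mean over the 12 libraries, with red above and blue below and lines between the cycle enzymes, the genes of entry and exit, and the carriers. The 3 Notch2 mutant Hes1 loxP libraries are mostly red, with 23, 26 and 24 of 30 genes above their own mean.

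The same pattern appears library by library. The number of genes above their own 12-library mean was 16, 19 and 21 of 30 in the Notch2 mutant with the Hes1 deletion, against 11, 8 and 5 in wild type with the deletion. With Hes1 loxP it was 23, 26 and 24 in the Notch2 mutant, against 9, 15 and 6 in wild type. Each Notch2 mutant library was above each wild type library, whatever the Hes1 state. Notch2 mutant Hes1 loxP held the highest group mean for 25 of 30 genes. The lowest mean was in wild type Hes1 deletion for 14 and in wild type Hes1 loxP for 11. The summed level of the 31 genes was 7148 to 7224 CPM in Notch2 mutant and 6792 to 6999 CPM in wild type Hes1 deletion libraries. It was 7325 to 7514 CPM in Notch2 mutant and 6810 to 7111 CPM in wild type Hes1 loxP libraries. These sums are dominated by abundant genes such as Mdh2 and Cs.

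With Hes1 deleted, the Notch2 mutant again had slightly more RNA of most of these genes than wild type, with smaller values. The median log2 fold change was 0.05, against 0.001 over all genes, and 24 of 30 lay above 0, against 50.6% of all genes. With the mean level of stromal markers as a covariate the median was 0.0118 and 17 of 30 lay above 0, and with total counts only 19 did. The edgeR quasi-likelihood test called 0 of 30, against 0.0149% of all genes (2 genes, both lower). DESeq2 and limma-voom also called 0. At an unadjusted p under 0.05 edgeR had 2 of 30, Aco1 and Mdh2, both higher, against 6.69% of all genes (3.22% higher). The libraries did not overlap for 8 genes, all higher in the Notch2 mutant (6.06% of all genes), and for 0 lower ones (6.4% of all genes). Of the cycle enzymes 13 of 16 lay above 0, of the genes of entry and exit 7 of 9, and of the carriers 4 of 5.

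Aco1, on chromosome 4 (40143081 to 40198338), is cytosolic aconitase, which also serves as an iron-regulated RNA-binding protein. Its level was 118, 114 and 111 CPM in Notch2 mutant and 106, 105 and 103 CPM in wild type Hes1 deletion libraries, without overlap. The log2 fold change was 0.13 ± 0.05 (SE), 9.30% with an interval of 1.93 to 17.2%, and edgeR gave an adjusted p of 0.650. Mdh2 had 983, 974 and 987 CPM in Notch2 mutant and 914, 933 and 855 CPM in wild type libraries, also without overlap, and its log2 fold change was 0.12 ± 0.05, and the adjusted p in edgeR was 0.650. The carrier Slc25a13, on chromosome 6 (6041218 to 6217173), exports mitochondrial aspartate. It had 78.4, 83.4 and 81.9 CPM in Notch2 mutant and 77.6, 75.6 and 74.1 CPM in wild type libraries, a log2 fold change of 0.10 ± 0.05 and an edgeR adjusted p of 0.752. In wild type the lowest of the 3 values came from replicate 3 for all 3 genes. Without that library the median over the 30 genes was 0.02.

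In the Notch2 mutant, most of these genes had slightly lower values with the Hes1 deletion, and none passed the test. This comparison shares its Notch2 mutant Hes1 loxP libraries with the first one, so a high level there enters both with opposite sign, and the sets are not independent. The median log2 fold change was -0.05 and 2 of 30 lay above 0, against 49% of all genes. The 2 were Slc25a10 at 0.04 and Slc25a13 at 0.004. Leaving out 1 library gave 3 to 9 above 0, the most without Notch2 mutant Hes1 loxP replicate 2, and with libraries scaled by total counts only 10 lay above 0 and the median was -0.0150. The edgeR quasi-likelihood test called 0 of 30, against 0.0373% of all genes (5 genes), and DESeq2 and limma-voom called 0. At an unadjusted p under 0.05 edgeR had 3 of 30, all lower (2.27% of all genes were lower, 4.76% either way), and 6 genes were lower without overlap (5.47% of all genes) and 0 higher (5.12%). Idh3g had 207, 199 and 215 CPM with the deletion and 224, 216 and 226 CPM with Hes1 loxP, a log2 fold change of -0.10 ± 0.05. Got2, the mitochondrial aspartate aminotransferase of the malate-aspartate shuttle, had 229.7, 248 and 239 CPM with the deletion and 257, 262 and 248.7 CPM with Hes1 loxP, a log2 fold change of -0.10 ± 0.04. For both genes the groups did not overlap. Mdh1 had 557, 524 and 539 CPM with the deletion and 548, 595 and 599.8 CPM with Hes1 loxP, a log2 fold change of -0.11 ± 0.05, and its groups overlapped. The edgeR adjusted p was 0.977 for all 3.

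In wild type cells the Hes1 deletion left the set centred near 0. The median log2 fold change was -0.01, with 13 of 30 above 0, against 50.5% of all genes. Leaving out 1 library gave 7 to 17 above 0, the fewest without replicate 3 of wild type Hes1 loxP and the most without replicate 2 of that group, where the median was 0.0142. The edgeR quasi-likelihood test called 0 of 30, against 0.0373% of all genes (5 genes), with DESeq2 and limma-voom at 0 too, and 0 of 30 had an unadjusted p under 0.05, against 5.93% of all genes. Aco1 was the 1 gene whose groups did not overlap, lower with the deletion (5.17% of all genes were lower without overlap, and 5.11% higher). The smallest p belonged to Acly, with 329, 327 and 294 CPM with the deletion and 303, 300.3 and 297.5 CPM with Hes1 loxP. Its log2 fold change was 0.08 ± 0.05, and its edgeR adjusted p was 0.902. Replicate 3 of the deletion group lay below all 3 Hes1 loxP libraries and the other 2 lay above them. Me1 had 15.97, 14.9 and 17.4 CPM with the deletion and 16.7, 19.3 and 17.7 CPM with Hes1 loxP, at -0.16 ± 0.11 and an edgeR adjusted p of 0.925. Aco1 had 106, 105 and 103 CPM with the deletion and 108.5, 109 and 111 CPM with Hes1 loxP, at -0.07 ± 0.05.

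**Figure D4:**
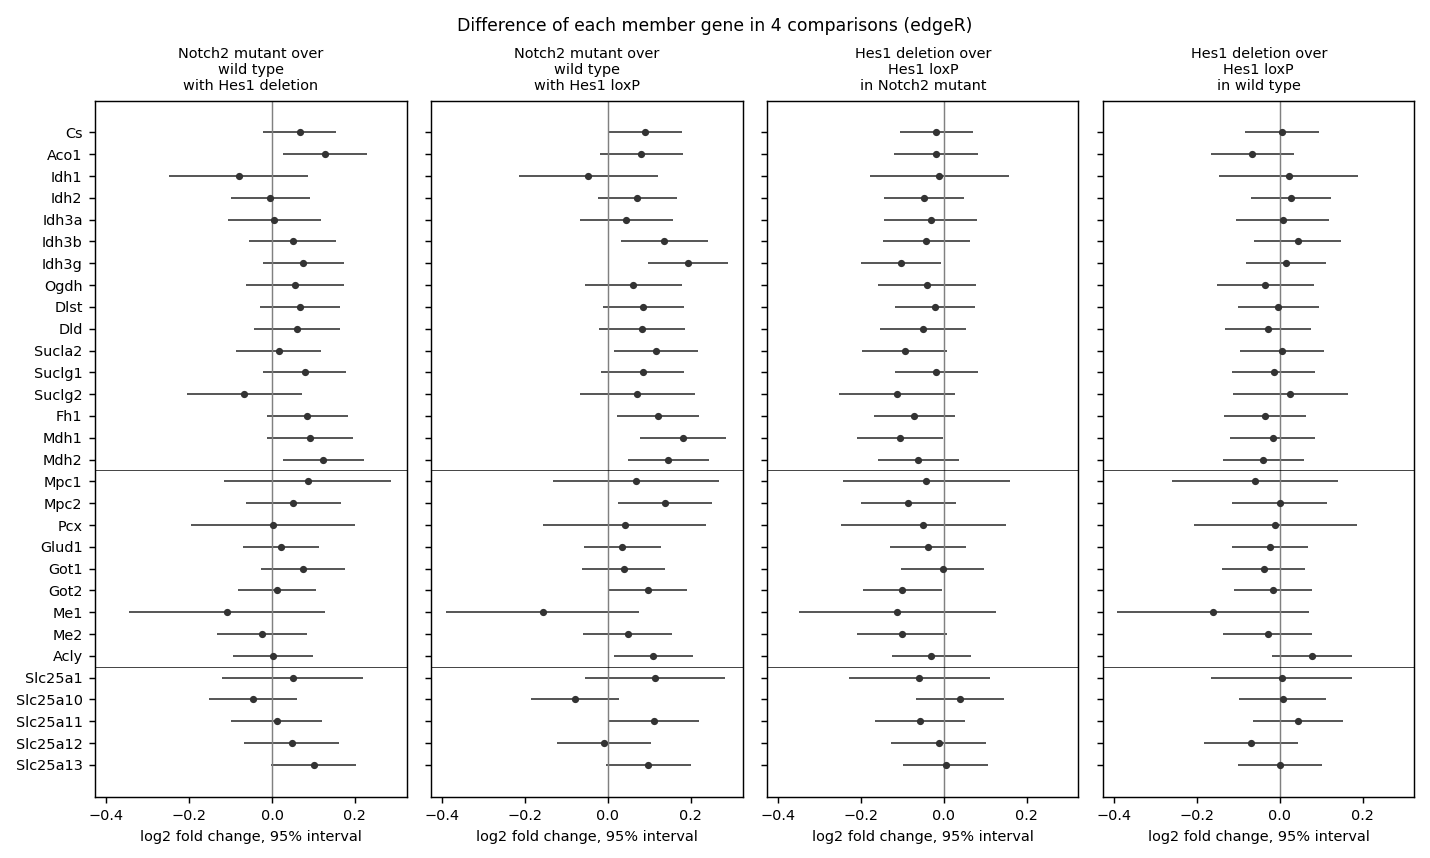
Log2 fold change of each of the 30 tested genes with its 95% interval in 4 comparisons of groups, by edgeR, with lines between cycle enzymes, genes of entry and exit, and carriers. In the Hes1 loxP comparison of Notch2 mutant with wild type 26 of 30 points lie right of 0, and in the comparison of Hes1 deletion with Hes1 loxP in the Notch2 mutant 28 lie left of it.

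Whether the Notch2 difference changed with the Hes1 state was tested directly by the interaction, the Notch2 log2 fold change with the Hes1 deletion minus that with Hes1 loxP. It had a median of -0.03 over the 30 genes, with 7 above 0, against 49.2% of all genes. Leaving out 1 library gave 5 to 14 above 0, the most without wild type Hes1 loxP replicate 1, where the median was -0.00399. The edgeR quasi-likelihood test called 0 of 30 and 0% of all genes, and 0 of 30 had an unadjusted p under 0.05, against 3.78% of all genes. DESeq2 and limma-voom called 0 of 30 as well. The smallest p values were those of Idh3g at -0.12 ± 0.07, Acly at -0.11 ± 0.06 and Suclg2 at -0.14 ± 0.09, with an edgeR adjusted p of 0.999 for each. With the Hes1 deletion Idh3g had 207, 199 and 215 CPM in Notch2 mutant and 198, 204 and 187 CPM in wild type libraries, and Acly had 312, 322 and 318 CPM in Notch2 mutant and 329, 327 and 294 CPM in wild type libraries, so both overlapped there, and with Hes1 loxP neither did. Suclg2, a subunit of the GDP-forming succinyl-CoA ligase, had 48.96, 49.3 and 51.1 CPM in Notch2 mutant and 53.5, 55.6 and 47.2 CPM in wild type Hes1 deletion libraries. With Hes1 loxP it had 51.25, 57.5 and 52.5 CPM in the Notch2 mutant and 53.2, 51.6 and 49.1 CPM in wild type, and the groups overlapped in both pairs. The Idh3g interval on this contrast ran from -0.26 to 0.02 on the log2 scale.

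Other genes of the same chemistry were followed in a list of 50, of which 42 were tested, holding succinate dehydrogenase, the pyruvate dehydrogenase complex with its kinases, lipoylation and glutamine enzymes. In Notch2 mutant against wild type cells with Hes1 loxP, 1 of 42 rose and 0 fell, against 0.776% of all genes called, and 31 lay above 0 with a median of 0.10, against 50.9% of all genes above 0. At an unadjusted p under 0.05 it had 17 of 42, against 14.2% of all genes. The one was Pdk2, a kinase that restrains pyruvate dehydrogenase and so the flow of pyruvate into the cycle. It had 23.9, 18.9 and 22.4 CPM in Notch2 mutant and 14.6, 14.5 and 13.4 CPM in wild type libraries, without overlap. Its log2 fold change was 0.62 ± 0.10, and the adjusted p in edgeR was 0.0127. It became 0.0530 without Notch2 mutant Hes1 loxP replicate 3, and 0.101 when the mean level of stromal markers (the stromal score) entered the fit as a covariate. Glutamine synthetase Glul was at -0.18 ± 0.04, adjusted p = 0.0625 by edgeR. With Hes1 deleted 0 of 42 were called by edgeR and 33 lay above 0, with a median of 0.06, and 6 had an unadjusted p under 0.05, against 6.69% of all genes. Glul was at -0.17, and the succinate dehydrogenase subunits Sdha and Sdhc were both at 0.11. The Hes1 deletion gave 0 of 42 called in edgeR in either genotype, with 2 of 42 at an unadjusted p under 0.05 in each, against 4.76% of all genes in the Notch2 mutant and 5.93% in wild type. There 14 of 42 lay above 0 in the Notch2 mutant and 21 in wild type.

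Regulators of mitochondrial genes, a list of 22 with 20 tested, gave 1 call in the same comparison. Hif1a, the oxygen-regulated factor that turns on glycolytic genes and pyruvate dehydrogenase kinase, fell. It had 93.6, 99.7 and 88.6 CPM in Notch2 mutant and 130.1, 114 and 119.6 CPM in wild type Hes1 loxP libraries, without overlap. The log2 fold change was -0.37 ± 0.06, and the adjusted p in edgeR was 0.00660 (0.0700 in the fit with that covariate). Tfeb, a regulator of lysosomal and mitochondrial genes, was at 0.24 and Esrra, an orphan receptor that drives oxidative genes, at 0.14, with edgeR adjusted p of 0.120 and 0.174. The interaction for Hif1a was 0.31 ± 0.08, with an adjusted p of 0.999 in edgeR. In wild type cells Myc was at 0.23 ± 0.06 with the Hes1 deletion, with an edgeR adjusted p of 0.382.

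Levels of osteoclast and stromal markers moved with the same groups. Summed over 16 osteoclast markers, levels were 40660 to 45650 CPM in Notch2 mutant and 33740 to 40760 CPM in wild type Hes1 deletion libraries, and 49720 to 55890 CPM in Notch2 mutant and 42190 to 45480 CPM in wild type Hes1 loxP libraries. In Notch2 mutant against wild type cells with Hes1 loxP, 14 of 16 lay above 0 with a median of 0.19. The edgeR test called 1, Ocstamp, higher, against 0.776% of all genes called. It had 11 of 16 at an unadjusted p under 0.05, against 14.2% of all genes. With Hes1 deleted 15 of 16 lay above 0 and 10 were under that p, against 6.69% of all genes. For the Hes1 deletion against Hes1 loxP, 1 of 16 lay above 0 in each genotype. Over all genes 50.5% did in wild type and 49% in the Notch2 mutant. Ocstamp, which takes part in the fusion of osteoclast precursors, had 443, 455 and 482 CPM in Notch2 mutant and 356, 395 and 411 CPM in wild type libraries, with an edgeR adjusted p of 0.0493, and 13 of 21 alternatives lost that call (adjusted p up to 0.229), among them the removal of any library other than Notch2 mutant Hes1 deletion replicate 1, wild type Hes1 deletion replicate 3 and wild type Hes1 loxP replicate 3. Mmp9 was the largest part of the osteoclast sum. Its mean was 21940 CPM in Notch2 mutant Hes1 deletion and 24500 CPM in Notch2 mutant Hes1 loxP libraries. Ctsk encodes a collagen-degrading protease and is also a main part of that sum. It had 4969, 4823 and 5305 CPM in Notch2 mutant Hes1 deletion libraries and 10540, 10480 and 11460 CPM in Notch2 mutant Hes1 loxP libraries. It fell by 1.11 ± 0.07 on the log2 scale, and the adjusted p in edgeR was 8.89e-08. In wild type it had 4921, 4709 and 3972 CPM with the deletion and 8793, 9066 and 9248 CPM with Hes1 loxP, and fell by 0.99 ± 0.07, with an edgeR adjusted p of 4.84e-07. Stromal markers, 14 of 15 tested, ran the other way. Between Notch2 mutant and wild type, 1 of 14 lay above 0 with Hes1 loxP and 2 with Hes1 deleted. For the Hes1 deletion against Hes1 loxP, 14 of 14 lay above 0 in wild type and 13 in the Notch2 mutant. They summed to 233 to 331 CPM in Notch2 mutant and 359.9 to 393 CPM in wild type Hes1 deletion libraries, and to 133 to 286 CPM in Notch2 mutant and 285 to 334 CPM in wild type Hes1 loxP libraries. Of the stromal markers edgeR called 1 lower in the Notch2 mutant with Hes1 loxP, the chemokine Cxcl12, at 0.221, 0 and 0.0579 CPM in Notch2 mutant and 0.719, 0.677 and 0.724 CPM in wild type libraries (adjusted p = 0.0493). That call was lost in 12 of 19 alternatives, among them the removal of any library other than wild type Hes1 deletion replicates 1 and 3 and Notch2 mutant Hes1 loxP replicate 1, with an edgeR adjusted p of up to 0.202 on such removals.

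Markers of other blood cells also moved. The 15 macrophage markers summed to 10210 to 11130 CPM in Notch2 mutant and 10490 to 10870 CPM in wild type Hes1 deletion libraries, which overlapped, and to 9654 to 10790 CPM in Notch2 mutant and 10810 to 11600 CPM in wild type Hes1 loxP libraries, which did not. With Hes1 loxP edgeR called 3 of the 15 lower in the Notch2 mutant and 0 higher, against 0.776% of all genes called. The median log2 fold change was -0.18, and 4 of the 15 lay above 0. At an unadjusted p under 0.05 edgeR had 6 lower and 2 higher, against 14.2% of all genes in either direction and 7.19% higher. The scavenger receptor Msr1 had 278.5, 268 and 269 CPM in Notch2 mutant and 404, 374 and 351 CPM in wild type libraries, and fell by 0.47 ± 0.08 on the log2 scale (edgeR adjusted p = 0.00750). The Fc receptor Fcgr1 had 27.5, 22.1 and 21.6 CPM in Notch2 mutant and 53.75, 38.5 and 34.2 CPM in wild type libraries, and fell by 0.83 ± 0.14 (edgeR adjusted p = 0.0127). Adgre1, which encodes the macrophage antigen F4/80, had 344, 299.8 and 330.3 CPM in Notch2 mutant and 462, 440 and 399.9 CPM in wild type libraries, and fell by 0.42 ± 0.08 (edgeR adjusted p = 0.0159). None of the 3 calls held with the stromal covariate (adjusted p of 0.176, 0.176 and 0.229 in edgeR). The Fcgr1 call was lost without Notch2 mutant Hes1 loxP replicate 3 (edgeR adjusted p = 0.0604). The Adgre1 call was lost without Notch2 mutant Hes1 loxP replicate 2 or 3, or wild type Hes1 loxP replicate 1 or 2, with an edgeR adjusted p of 0.0588 to 0.0726. Of 11 tested neutrophil markers 2 lay above 0, and edgeR called 1, Mmp8, lower. It had 33.75, 31.8 and 33.9 CPM in Notch2 mutant and 43.05, 44.3 and 49.0 CPM in wild type libraries (edgeR adjusted p = 0.0384). Without any 1 of the 6 libraries compared that call was lost, with an adjusted p of up to 0.108 in edgeR, and it was lost with the stromal covariate (adjusted p = 0.297 in edgeR). Of 8 tested MHC class II and dendritic genes, 8 lay above 0 in this comparison with a median of 0.51. Of these 7 had an unadjusted p under 0.05 in edgeR, against 14.2% of all genes, and it called 0. With Hes1 deleted edgeR called 0 genes of these 3 lists between Notch2 mutant and wild type. Lum, a stromal marker, was at 0 in 9 of 12 libraries and the adipocyte marker Cidec and the muscle marker Myog in all 12. In the fit with the stromal covariate, the median of the Notch2 comparison over the 30 genes was 0.05 with Hes1 loxP and 0.01 after Hes1 deletion, and edgeR called 0 of 30 in both. Stromal levels were lower in the Notch2 mutant groups, so this fit cannot tell stromal content and genotype apart. The part of the stromal, osteoclast, macrophage, neutrophil and MHC class II levels in these differences was not tested.

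**Figure D5:**
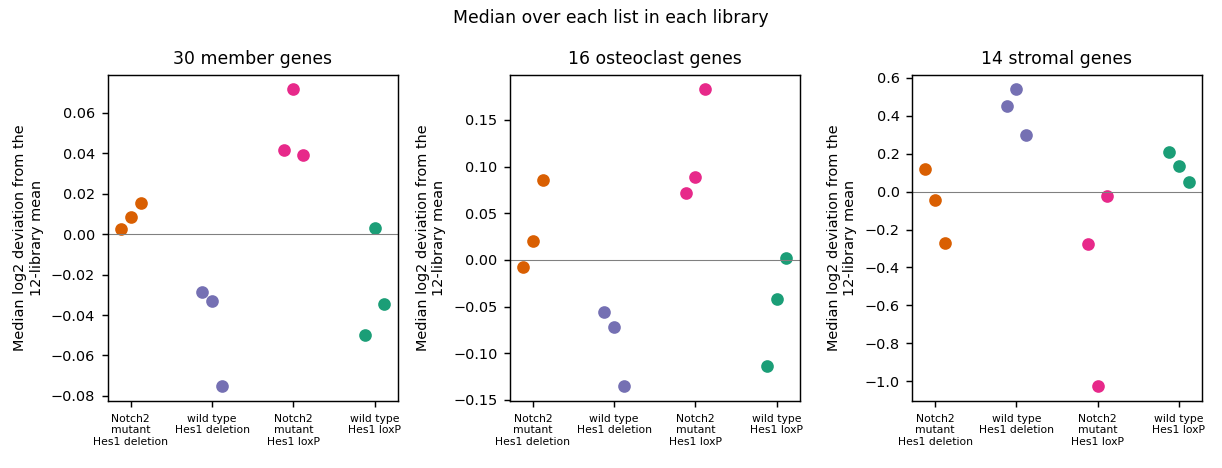
Median over the genes of each list of the log2 deviation from the 12-library mean, with 1 point per library in the 4 groups. For the 30 genes described here the Notch2 mutant Hes1 loxP libraries lie highest. By group median the 16 osteoclast genes put the same group on top and the 14 stromal genes put it lowest. For both lists its libraries overlap those of Notch2 mutant Hes1 deletion. The lowest stromal point, -1.03, is replicate 2 of Notch2 mutant Hes1 loxP.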

How the data were processed

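RNA was sequenced from 12 osteoclast cultures in 4 groups of 3. Libraries of stranded mRNA were read as 75 bp paired ends in a single pool, per the labels' protocols. The authors deposited raw counts per gene, made with HISAT2, SAMtools, Picard, HTSeq and DESeq2 on build GRCm38 per the submitters' processing notes. No source used here gives their versions or the strand setting. The 5 summary rows, 15.8 to 19.0% of a file's total, were left out. Symbols, exon lengths and positions (1-based) came from GENCODE M21 on GRCm38; 52081 IDs had a name there and 3333 had none.

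The counts went into edgeR 4.0.16 under R 4.3.3 (quasi-likelihood F-test, TMM, filterByExpr with minimum count 10 and total 15, all 12 libraries in 1 fit, two-sided, Benjamini-Hochberg over 13403 genes, threshold 0.05). Log2 fold changes carry a standard error derived from F and a 95% interval. CPM here is scaled to the counts of tested genes times the TMM factor, and TPM uses the length of all exons merged. On simulated counts the fit recovered most of 200 changed genes. The sizes of those changes are not given here, so that check does not show that differences as small as those described above would be called.

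Values per library were given for the 3 member genes with the smallest unadjusted p in each comparison (called members were also to be given), and for the called genes of the other lists described, with up to 3 more of each list named. The members and lists were chosen with earlier results of these data known, so no test over a list was made. Alternatives were RLE scaling, total counts only, no filter, DESeq2 1.42.0, a floor of 50 on the mean count, limma-voom (limma 3.58.1), a replicate block, only the groups compared, the stromal score (mean log2 CPM of stromal markers) as a covariate, and each library left out. The single-cell part of the study was not analysed here.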

Additional observations from a re-analysis of the deposited data

How the results depend on the processing

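For the 33 gene values named with a test, 688 alternative values were computed: 639 kept their direction and side of the threshold, 6 passed it newly (Idh3g and Mdh1 in the Notch2 comparison with Hes1 loxP, under no filter, DESeq2 and without wild type Hes1 deletion replicate 3), 43 no longer passed it and 0 reversed. The 43 were all in that comparison: 13 for Ocstamp, 12 for Cxcl12, 7 for Mmp8, 5 for Adgre1, 2 each for Fcgr1 and Pdk2, and 1 each for Hif1a and Msr1. With Hes1 loxP, the Notch2 comparison had 2 member genes called with no filter and 2 with DESeq2. All genes called there were 657 with no filter, 244 with DESeq2 and 2 with the stromal covariate, against 104. The median member log2 fold change was 0.0593 with total counts only and 0.0522 with the stromal covariate. With the Hes1 deletion the Notch2 comparison called 138 genes with no filter, 1 with a mean count of at least 50, 1 with limma-voom and 0 with the stromal covariate, and the median was 0.0118 with that covariate. For the Hes1 deletion in wild type, genes called were 135 with no filter, 2 with a mean count of at least 50 and 3 with the stromal covariate. For the Hes1 deletion in the Notch2 mutant they were 110, 2 and 3 under the same settings and 3 with limma-voom, and the median was -0.015 with total counts only. The interaction called 63 genes with no filter. The cause of these shifts was not tested.

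Leaving out each library gave 0 to 2 member genes called in the Notch2 comparison with Hes1 loxP and 0 in the other 4 contrasts. The medians ran from 0.0581 to 0.0981 with Hes1 loxP, 0.0205 to 0.0546 with the Hes1 deletion, -0.0304 to 0.0142 for the deletion in wild type, -0.0576 to -0.0421 in the Notch2 mutant, and -0.0485 to -0.00399 for the interaction. Genes called ran from 26 to 289, 0 to 5, 3 to 26, 3 to 6 and 0 to 12 in the same order. In the Notch2 comparison with Hes1 loxP, fewer genes were called without wild type Hes1 loxP replicate 1 (26) or 2 (35), or without Notch2 mutant Hes1 loxP replicate 2 (46) or 3 (28).

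Same-numbered samples of different groups had correlations of their deviations from -0.09 to 0.107. Between the Notch2 mutant and wild type Hes1 loxP groups they were 0.098, 0.107 and 0.077. Such low values over 3 libraries per group cannot show whether replicate numbers paired the samples. With the replicate number as a block the medians were 0.0836, 0.05, -0.00688, -0.0458 and -0.0342, 0 member genes were called in each contrast, and 148, 2, 5, 4 and 0 genes were called in all. Nnt, at 1 to 7 counts per library, did not pass the filter and was not tested. An interaction fit with only the groups compared was not run, since it uses all 4 groups.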
